A study of Homo sapiens with 6 samples.

Results

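Complex I (NADH:ubiquinone oxidoreductase) is the entry point for electrons from NADH into the mitochondrial respiratory chain. The genes described here are the nuclear genes named NDUFA, NDUFB, NDUFC, NDUFS or NDUFV with a number, NDUFAB1, and the assembly factors named NDUFAF with a number. They were picked by gene symbol, leaving out NDUFA4, NDUFA4L2, antisense RNAs and pseudogenes, with earlier results of these data known. They came to 45 of 30726 symbols, of which 37 are subunits and 8 are assembly factors. All 45 passed the expression filter, which asked for at least 1 RPKM in no fewer than 3 of 6 libraries, as did 10253 genes in all.

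Polysome-associated RNA, the RNA found with several ribosomes in a sucrose gradient, was read from 3 long-established lines of human breast cancer cells. They were SUM1315 (triple negative), SKBR3 (HER2-positive) and T47D (luminal). Each line, labelled wild type, was kept at 1% oxygen for 8 hours (hypoxia) or at 21% oxygen (normoxia), and each gave 1 library per oxygen level. The lines grew in different media, SUM1315 with insulin and EGF, T47D with insulin and SKBR3 with neither, so that line and medium cannot be told apart. The stated aim was to learn how hypoxia acts on the translation of transcripts.

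Values are taken here as RPKM, reads per kilobase relative to the size of the library, so each value is a share of that library's polysome RNA. RNA from whole lysates was not analysed here, so that mRNA amount and ribosome loading cannot be separated, and fewer cells making an mRNA and less of it per cell cannot be told apart. At the step seen in the low values, 1 RPKM on a transcript of 1 kb stood for 21.7 to 33.4 reads or read pairs, and 9675 to 10842 genes per library reached 1 RPKM. Nothing replicates a line at one oxygen level, so p-values for hypoxia rest on the spread between these 3 pairs of libraries. The test, limma, draws that spread toward a trend over all tested genes. The trend has a weight of 8.02, against 2 for the gene's own libraries. Each SE from limma is thus mostly that trend, and can be smaller or larger than the gene's own spread implies. Of the 5 hypoxia genes used as a check, DDIT4 rose by 3.60, BNIP3 by 2.80, VEGFA by 1.54 and PDK1 by 1.37 on the log2 scale under hypoxia, each past the test, while CA9 was below the expression filter.

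Complex I is shaped like an L. Its matrix arm takes electrons from NADH through a flavin and a chain of iron-sulfur clusters to ubiquinone, and its membrane arm, which holds the mitochondrially encoded ND subunits, pumps protons. The core subunits carry the chemistry, and the accessory subunits surround and stabilise them. Assembly factors bind intermediates while the arms are joined and are absent from the finished enzyme. Cells in low oxygen are known to lower respiration, and the subunit paralog NDUFA4L2 is a known target of the hypoxia-inducible factors.

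Upstream sequence is shown for the members with the lowest and the highest hypoxia estimate, NDUFAF4 and NDUFB2, so that the stretch next to each start can be read beside the values. Each run is the 250 bases before the RefSeq transcription start on GRCh38.p14, written 5′ to 3′ in the gene's own direction. NDUFAF4 lies on the minus strand, at chr6:96897892-96898141 for the run shown, and NDUFB2 on the plus strand, at chr7:140696458-140696707. Capitals mark the hypoxia-inducible factor core (ACGTG or GCGTG, either strand) and the ETS motif CCGGAAG (either strand).
NDUFAF4: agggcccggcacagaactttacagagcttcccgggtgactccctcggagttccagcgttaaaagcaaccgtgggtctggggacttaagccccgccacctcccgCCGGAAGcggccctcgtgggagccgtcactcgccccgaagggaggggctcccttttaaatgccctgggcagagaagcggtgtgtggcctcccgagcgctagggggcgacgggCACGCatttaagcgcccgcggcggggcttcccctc
NDUFB2: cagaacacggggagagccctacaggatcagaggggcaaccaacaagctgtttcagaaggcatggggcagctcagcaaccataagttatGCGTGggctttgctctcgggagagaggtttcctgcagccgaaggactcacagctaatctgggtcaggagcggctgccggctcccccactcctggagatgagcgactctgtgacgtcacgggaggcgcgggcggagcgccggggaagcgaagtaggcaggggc
The NDUFAF4 run held 1 HIF core, read on the opposite strand, and 1 ETS motif, and the NDUFB2 run held 1 HIF core and no ETS motif. A RefSeq promoter of 300 bases, 250 before and 50 after the start, was matched for 39 of the 45 genes. The HIF core was in 25 of the 39 (64.1%), against 48.4% of all 27305 promoters. The NRF1 core GCATGCG, the motif of a regulator of nuclear genes for mitochondrial proteins, was in 7 (17.9%), against 4.13% of all promoters. The YY1 motif AAGATGG was in 7 (17.9%), against 6.06%, and the ETS motif in 6 (15.4%), against 10.7%. The HIF core was present in the run of the gene with the lowest estimate and in that of the gene with the highest. These matches describe letters in a window.

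Subunit mRNAs were abundant on polysomes, and assembly factor mRNAs were near the level of a typical expressed gene. The median subunit stood at 39.1 RPKM in SUM1315 hypoxia and 48.1 in SUM1315 normoxia, 70.8 in SKBR3 hypoxia and 87.1 in SKBR3 normoxia, and 103 in T47D hypoxia and 90.7 in T47D normoxia. The median assembly factor stood at 4.93 and 5.49 RPKM in hypoxia and normoxia of SUM1315, 4.72 and 5.47 in SKBR3, and 5.60 and 7.54 in T47D. Over all tested genes the median was 5.15 to 6.28 RPKM. The subunit median was thus 7.93 to 18.4 times the assembly factor median within a library. Among tested genes it lay between percentiles 88.6 and 94.6, and the assembly factor median between percentiles 43.0 and 57.3. Together the 45 genes took 1.35% (hypoxia) and 1.48% (normoxia) of the RPKM sum in SUM1315, 2.32% and 2.03% in SKBR3, and 2.37% and 2.03% in T47D.

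The highest member in mean RPKM was NDUFS5, a small protein of the membrane arm with twin cysteine motifs that folds in the intermembrane space. It had 947, 1048 and 1018 RPKM in hypoxia of SUM1315, SKBR3 and T47D, against 1104, 769 and 825 RPKM in normoxia. The lines overlap fully for NDUFS5, and it did not pass the test between any pair of lines. NDUFAF7, a mitochondrial methyltransferase needed for assembly, was the lowest. It had 2.11, 2.13 and 1.01 RPKM in hypoxia, against 3.16, 2.18 and 2.08 RPKM in normoxia. The lowest subunit was NDUFS1, the largest core subunit, which holds iron-sulfur clusters near the NADH site, at a mean of 2.22 RPKM over the 6 libraries.

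Core subunits, which occur once in the enzyme like nearly all the others, differed widely in RPKM. NDUFS7, which passes electrons to ubiquinone, averaged 30.6 RPKM, NDUFV1, which binds NADH and the flavin, 47.4 RPKM, and NDUFV2, its iron-sulfur partner, 74.0 RPKM. Across the 45 genes, mean RPKM and the number of annotated transcripts had a Spearman rho of -0.57, against -0.08 over 9441 tested coding genes. With the length of the principal transcript, rho was -0.48 against -0.44 over 9439 genes. These are correlations across genes of the same 6 libraries, given as a description. The authors' way of dividing reads among transcripts is not stated in the sources used, so the order of levels between genes depends on it in a way that was not tested. Comparisons of 1 gene between libraries do not use that order.

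**Figure D1:**
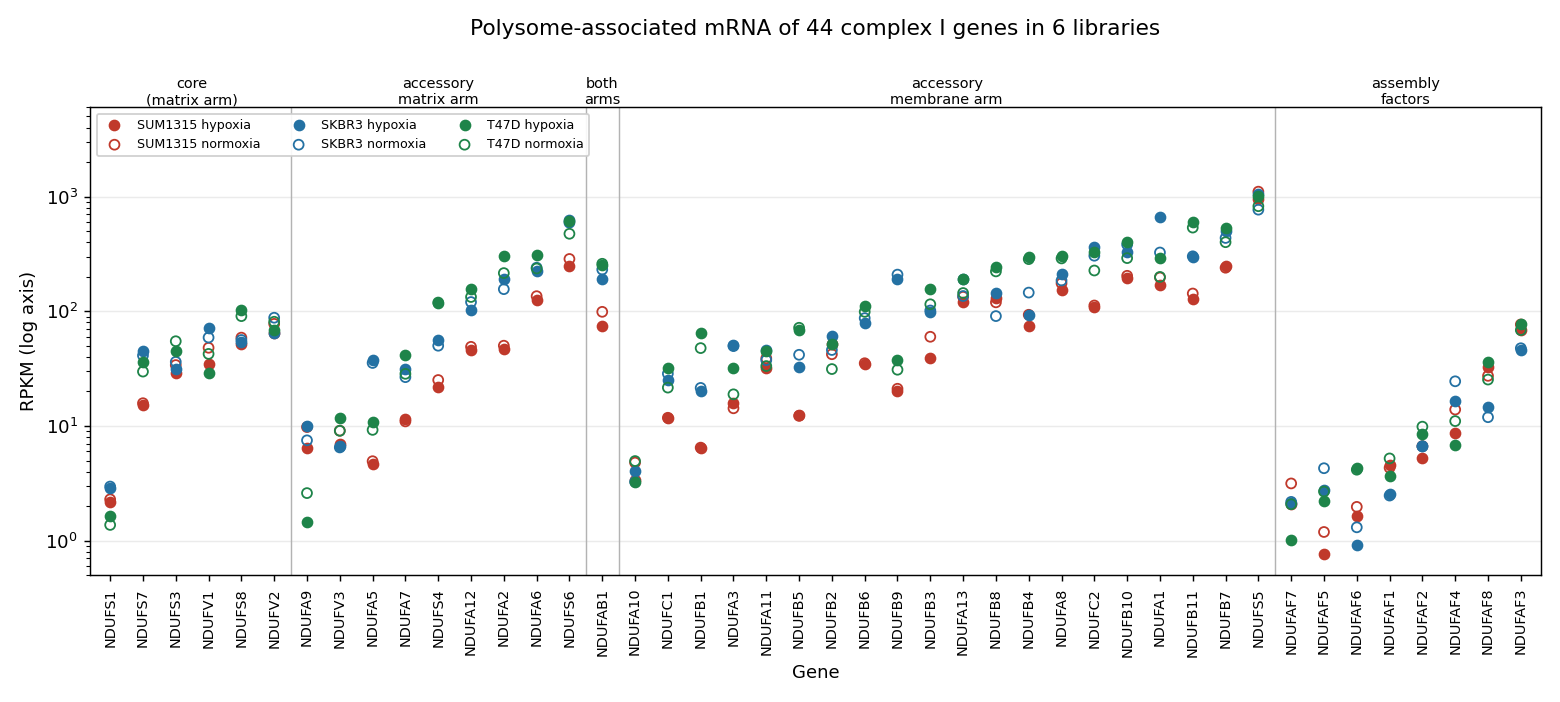
Level of 44 of the 45 complex I genes (RPKM, log axis) in the 6 libraries, ordered within each class by mean level. Filled circles are hypoxia and open circles normoxia, with 1 point per library. Subunits reach from NDUFS1, at a mean of 2.22 RPKM, to NDUFS5, at 952 RPKM, and most assembly factors lie at the low end.

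Under hypoxia, 1 complex I gene passed the test, the assembly factor NDUFAF4, which was lower. No member of 45 passed as higher, against 4.12% of all tested genes, and 1 passed as lower, against 2.26% of all tested genes (limma, Benjamini-Hochberg adjusted p under 0.05). Counts this small do not set the members apart from other genes, and a member that did not pass may still have changed. An unadjusted limma p under 0.05 was found for 5 of 45 members, beside 2692 of all 10253 tested genes, which is a larger share. The 5 members were NDUFAF4, NDUFAF5, NDUFAF7 and NDUFAF8 and the subunit NDUFB2. The estimates of all 45 lay between -0.60 and 0.46 on the log2(RPKM + 1) scale, a scale that understates changes of low genes.

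NDUFAF4 acts early in assembly, together with NDUFAF3. Its gene lies at chr6:96889313-96897881 on the minus strand (GRCh38) and overlaps no other coding gene. It had 8.68, 16.4 and 6.85 RPKM in hypoxia of SUM1315, SKBR3 and T47D, against 13.9, 24.5 and 11.0 RPKM in normoxia. Hypoxia was the lower of the pair in every line, although the range over lines overlapped between oxygen levels, since SKBR3 stood highest at both. Hypoxia libraries held 62.4%, 66.7% and 62.1% of the normoxia value in SUM1315, SKBR3 and T47D, and the means were 10.6 ± 5.04 and 16.5 ± 7.11 RPKM (SD, n = 3 lines). The log2 fold change was -0.60 ± 0.14 (limma SE, n = 3 lines), with a 95% interval of -0.91 to -0.29 and an adjusted p of 0.034 in limma. The log2 ratios of the lines had an SD of 0.04 and were within 0.07 of each other. The estimate was between -0.62 and -0.59 with any line left out, while the adjusted p was 0.11 without SUM1315, 0.047 without SKBR3 and 0.12 without T47D. It was 0.057 with a pseudocount of 5, 0.40 with no expression filter and 1.00 without the block for line.

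The other 7 assembly factors did not pass. NDUFAF5, which hydroxylates an arginine of NDUFS7, had 0.762, 2.74 and 2.22 RPKM in hypoxia of SUM1315, SKBR3 and T47D, against 1.19, 4.28 and 2.68 RPKM in normoxia. It was lower in hypoxia within every line, with a log2 fold change of -0.34 ± 0.12 (limma adjusted p = 0.12). NDUFAF7 was also lower within every line, at -0.35 ± 0.14 (limma adjusted p = 0.15), although its SKBR3 pair differed by 2.18 against 2.13 RPKM, a gap too small to read as a difference. Without T47D the estimate of NDUFAF7 was -0.22.

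NDUFAF8, the stabilising partner of NDUFAF5, had 32.7, 14.6 and 36.5 RPKM in hypoxia, against 27.4, 11.9 and 25.4 RPKM in normoxia. It was the only assembly factor with an estimate above 0 and lay higher in hypoxia within all 3 lines, at 0.34 ± 0.15 (limma adjusted p = 0.18). NDUFAF5 and NDUFAF8, which work as a pair, thus had estimates of opposite sign, neither of which passed.

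For the remaining assembly factors the estimates were smaller. NDUFAF2, a paralog of NDUFA12 that holds its place during assembly, had an estimate of -0.16. NDUFAF6 had -0.13 and NDUFAF1, a member of the complex that assembles the membrane arm, -0.10. NDUFAF3, the partner of NDUFAF4, had -0.01 ± 0.15 (limma adjusted p = 0.97), with 68.9, 45.6 and 78.2 RPKM in hypoxia against 76.7, 47.6 and 68.6 RPKM in normoxia. Its oxygen groups overlapped, and its sign differed between lines. The interval of NDUFAF3, -0.35 to 0.33, still reaches the size of smaller changes. The difference between NDUFAF4 and NDUFAF3 was not tested.

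Of the 37 subunits, none passed as higher or as lower (limma), beside 4.12% and 2.26% of all tested genes. An unadjusted limma p under 0.05 was found for 1 of the 37, beside 2692 of all 10253 tested genes. The subunit estimates lay above 0 in 24 and below 0 in 13, with a median of 0.06. Over all tested genes, 50.8% lay below 0 and the median was -0.01. Of the 8 assembly factors, 1 lay above 0 and 7 below, with a median of -0.14. That median was -0.08 with a pseudocount of 5, -0.20 with one of 0.1, and between -0.21 and -0.15 with a line left out. In all 3 lines alike, 5 subunits and 1 assembly factor were higher in hypoxia, against 23.5% of all tested genes. By the same count 3 subunits and 3 assembly factors were lower in all 3 lines, against 25.2% of all tested genes. In the other 29 subunits the sign differed between lines.

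None of the 7 core subunits passed. NDUFV2 had 65.0, 64.2 and 68.3 RPKM in hypoxia of SUM1315, SKBR3 and T47D, against 77.7, 87.9 and 81.0 RPKM in normoxia. Its 3 hypoxia libraries all lay under its 3 normoxia libraries, and the level barely differed between lines. The share of all tested genes that separate in this way was not counted, and 25.2% of them were lower in all 3 lines. The log2 fold change of NDUFV2 was -0.31 ± 0.15 (95% interval -0.65 to 0.02, limma adjusted p = 0.22), the lowest estimate of any subunit.

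NDUFS3, a scaffold of the module that hands electrons to ubiquinone, had 29.2, 31.3 and 45.0 RPKM in hypoxia, against 34.0, 36.2 and 54.8 RPKM in normoxia. It was lower in hypoxia within every line, with an estimate of -0.23 ± 0.15 (limma adjusted p = 0.33). NDUFV1 had 34.6, 70.8 and 29.1 RPKM in hypoxia, against 48.1, 59.0 and 42.5 RPKM in normoxia. It was lower in hypoxia in SUM1315 and T47D and higher in SKBR3, at -0.25 ± 0.18 (limma adjusted p = 0.42). With a line left out the estimate of NDUFV1 was -0.14 without SUM1315, -0.50 without SKBR3 and -0.10 without T47D. NDUFS7 had an estimate of 0.12 ± 0.15 (limma adjusted p = 0.63). NDUFS1 had 0.02 and NDUFS8, another holder of iron-sulfur clusters, -0.02.

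Among accessory subunits, the highest estimate was that of NDUFB2, a small membrane arm protein. It had 51.4, 61.4 and 51.8 RPKM in hypoxia of SUM1315, SKBR3 and T47D, against 42.2, 46.0 and 31.4 RPKM in normoxia. All 3 hypoxia libraries lay above all 3 normoxia libraries. How many of all tested genes do so was not counted, and 23.5% of them were higher in all 3 lines. The log2 fold change was 0.46 ± 0.16 (95% interval 0.12 to 0.81), and with an adjusted p of 0.10 in limma it did not pass.

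NDUFA1, a membrane arm protein that is needed for assembly, had the widest spread between lines. It had 169, 661 and 293 RPKM in hypoxia of SUM1315, SKBR3 and T47D, against 197, 325 and 199 RPKM in normoxia. Hypoxia was the lower of the pair in SUM1315 and the higher in SKBR3 and T47D. The log2 ratios of the lines had an SD of 0.63. The estimate was 0.45 ± 0.22 (limma adjusted p = 0.22), and with a line left out it was 0.79 without SUM1315 (adjusted p = 0.032), 0.17 without SKBR3 (adjusted p = 0.67) and 0.40 without T47D (adjusted p = 0.45).

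NDUFB8, a membrane arm protein, and NDUFA3 had estimates of 0.31 and 0.30 and were higher in hypoxia within every line. Without SKBR3 the estimate of NDUFB8 was 0.13. NDUFA7 (0.28) and NDUFB7 (0.22) were the other subunits higher in all 3. NDUFB4 had the lowest estimate among accessory subunits, -0.30 ± 0.17 (limma adjusted p = 0.30), and its T47D pair went the other way, with 298 RPKM in hypoxia against 285 in normoxia. Its estimate was -0.12 without SKBR3 and -0.48 without T47D. NDUFAB1, the mitochondrial acyl carrier protein, which also serves iron-sulfur cluster synthesis, was lower in hypoxia in all 3 lines, at -0.24 ± 0.15 (limma adjusted p = 0.35).

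Within a line, 1 library is set against 1 library, and the subunits leaned one way or the other by line. In SUM1315, 31 of 37 subunits had a lower value in hypoxia, against 49.1% of all tested genes, and 6 a higher one, against 50.6%, with a median log2 ratio of -0.14. In SKBR3, 16 were lower, against 56.1% of all tested genes, and 21 higher, against 43.8%, with a median of 0.07. In T47D, 8 were lower, against 46.8% of all tested genes, and 29 were higher, against 53.2%, with a median of 0.26. The medians over all tested genes were 0.00 in SUM1315, -0.05 in SKBR3 and 0.03 in T47D. With the libraries scaled to a common RPKM sum the subunit medians were -0.12, 0.09 and 0.20, and centred on the median gene -0.18, 0.12 and 0.25, in SUM1315, SKBR3 and T47D. The subunit estimate over the 3 lines followed the lines kept, at a median of 0.15 without SUM1315, 0.07 without SKBR3 and -0.06 without T47D. The difference between lines was not tested, since no line has a replicate.

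By arm, of the 20 nuclear subunits of the membrane arm, 15 were lower in hypoxia in SUM1315, 9 in SKBR3 and 2 in T47D, with medians of -0.06, 0.12 and 0.41. Of the 16 matrix arm subunits, 15 were lower in SUM1315, 6 in SKBR3 and 5 in T47D, with medians of -0.18, 0.08 and 0.19. All 7 core subunits were lower in hypoxia in SUM1315. Of the 8 assembly factors, 6 were lower in SUM1315 (median -0.23), 5 in SKBR3 (median -0.04) and 5 in T47D (median -0.19), beside 49.1%, 56.1% and 46.8% of all tested genes. The classes were not tested against each other.

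**Figure D2:**
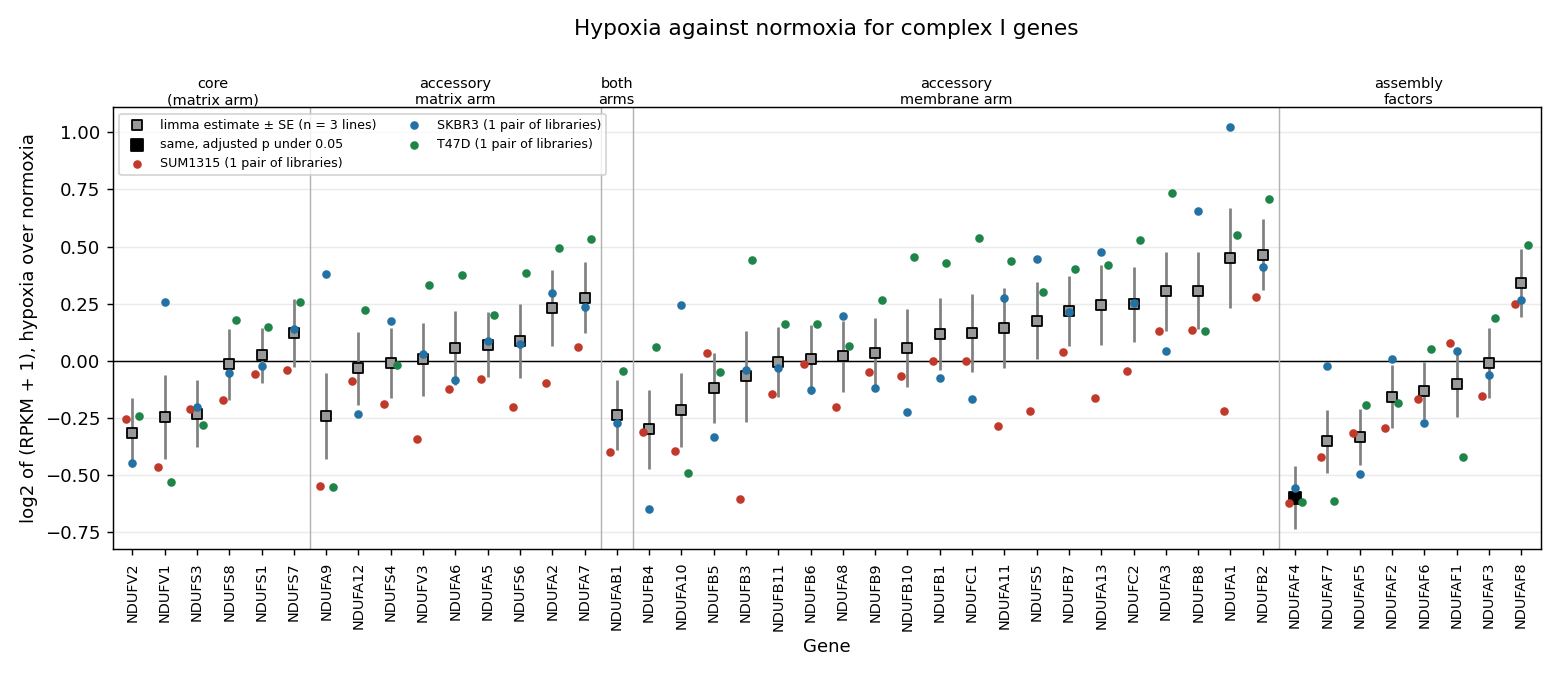
Difference between hypoxia and normoxia in log2(RPKM + 1) for 44 complex I genes, grouped by class. Squares with bars are limma estimates with their limma SE (n = 3 lines, black where the adjusted p is under 0.05). Coloured points are the single pairs of each line. NDUFAF4 is the 1 black square, at -0.60, with its 3 lines close together, and the T47D points lie above the SUM1315 points for most membrane arm subunits.

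Of the 13 other complex I assembly factors, none rose and 1 fell in hypoxia (limma), beside 4.12% and 2.26% of all tested genes, with 5 estimates above 0 and 8 below and a median of -0.09. TMEM70, which helps assemble the membrane arm of complex I as well as the ring of the ATP synthase, had 16.8, 54.3 and 26.6 RPKM in hypoxia of SUM1315, SKBR3 and T47D, against 27.4, 102 and 40.9 RPKM in normoxia. Hypoxia was the lower of the pair in each line, with overlap between oxygen levels across lines. TMEM70 fell by 0.72 ± 0.15 on the log2 scale (limma adjusted p = 0.024). The adjusted p was 0.055 without SUM1315, 0.055 without SKBR3 and 0.043 without T47D. It was 0.40 with no expression filter, and TMEM70 did not pass without the block for line. FOXRED1, an assembly factor with an oxidoreductase fold, had an estimate of -0.39 (limma adjusted p = 0.10) and TMEM126B, a partner of NDUFAF1, -0.42 (limma adjusted p = 0.13). AIFM1, which with CHCHD4 serves import into the intermembrane space, had the highest estimate of the list, 0.11. In hypoxia 13 of 13 were lower in SUM1315, 9 in SKBR3 and 9 in T47D, beside 49.1%, 56.1% and 46.8% of all tested genes, and 7 were lower in all 3 lines, beside 25.2%.

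The 7 mitochondrially encoded subunits, whose mRNAs are translated by mitochondrial ribosomes and not by the cytosolic polysomes, were present in these fractions, and none passed. MT-ND6 had the highest estimate, 0.65 (limma adjusted p = 0.069), and MT-ND1 the lowest, -0.34 (limma adjusted p = 0.24), and the median was 0.12. Of the 13 genes for iron-sulfur cluster supply none passed and the median was 0.01. The lowest was NFS1, the cysteine desulfurase, at -0.59 (limma adjusted p = 0.051), and the highest was GLRX5, a cluster carrier, at 0.47 (limma adjusted p = 0.15). Over all tested genes, 4.12% passed as higher and 2.26% as lower, so an absence of calls does not set lists this small apart.

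Among the 3 matrix protease genes linked to the turnover of complex I, LONP1 rose, and CLPP (0.11) and CLPX (0.22) did not pass. LONP1 had 29.0, 21.0 and 18.3 RPKM in hypoxia of SUM1315, SKBR3 and T47D, against 21.6, 13.6 and 9.28 RPKM in normoxia. Hypoxia was the higher of the pair in each line, with overlap between oxygen levels across lines. The log2 fold change was 0.64 ± 0.16 (limma adjusted p = 0.040). The adjusted p was 0.033 without SUM1315, 0.064 without SKBR3 and 0.19 without T47D. It was 0.059 with a pseudocount of 5, 0.053 with libraries centred on the median gene and 0.42 with no expression filter. LONP1 did not pass without the block for line. NDUFA4, once counted as a complex I subunit and now placed in complex IV, had an estimate of -0.05 (limma adjusted p = 0.87).

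**Figure D3:**
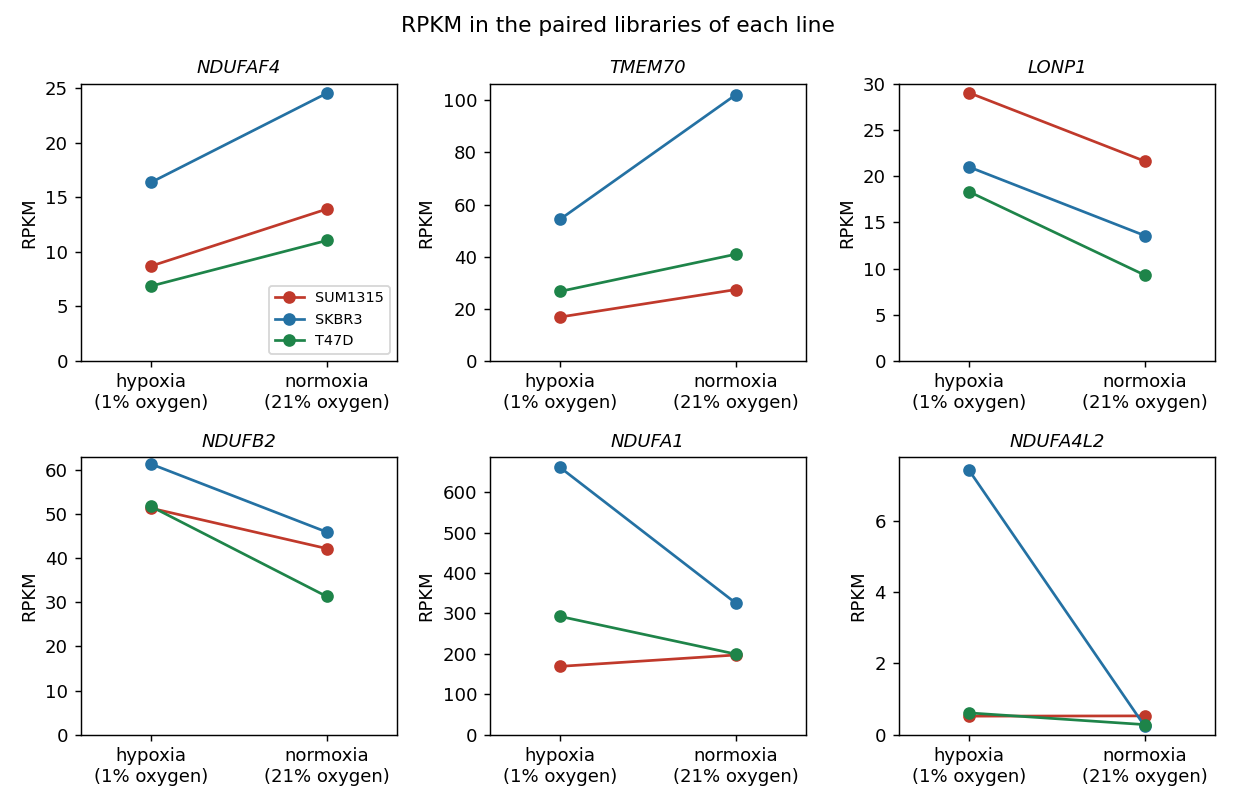
RPKM in the paired libraries of each line, hypoxia (1% oxygen) on the left and normoxia (21% oxygen) on the right, for 3 complex I genes (NDUFAF4, NDUFB2, NDUFA1) and 3 related genes. Each drawn line joins the 2 libraries of a cell line, and each panel has its own axis from 0. NDUFAF4 and TMEM70 are lower in hypoxia in all 3 lines, LONP1 and NDUFB2 are higher in all 3, NDUFA1 differs in sign in SUM1315, and NDUFA4L2 is high in SKBR3 hypoxia alone.

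Between lines the differences were larger than between oxygen levels, and SUM1315 held less subunit mRNA on polysomes than either other line. Against SKBR3, 4 of the 45 members were higher in SUM1315, against 41.8% of all tested genes, and 24 were lower, against 28.0%. Against T47D, 3 were higher in SUM1315, against 39.0% of all tested genes, and 28 were lower, against 30.2%. Among subunits none was higher and 22 of 37 were lower in SUM1315 than in SKBR3, with a median of -0.95, and 2 were higher and 25 lower in SUM1315 than in T47D, with a median of -0.89. The medians over all tested genes were 0.21 and 0.16, the other way. Both contrasts use the same 2 SUM1315 libraries. The 2 libraries of a line differ in oxygen level, so p-values between lines do not measure the spread between cultures of 1 line.

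Of the 8 assembly factors, 4 were higher and 2 lower in SUM1315 than in SKBR3 (median 0.30), beside 41.8% and 28.0% of all tested genes. In SUM1315 over T47D, 1 was higher and 3 lower (median -0.02), beside 39.0% and 30.2%. Assembly factors were not tested against subunits. Both SUM1315 libraries lay under all 4 other libraries in 23 subunits and in NDUFAF5, 24 of 45 members, against 23.5% of all tested genes. They lay over all 4 others in none of the 45, against 32.9%. With libraries centred on the median gene, so that the median over all genes is 0.00 or 0.01, 1 member was higher and 28 lower in SUM1315 than in SKBR3, and likewise 1 and 28 against T47D.

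The lines carried their own markers. The summed RPKM of VIM, AXL and CD44 was 1337 and 574 in hypoxia and normoxia of SUM1315, against 5.73 to 10.6 in the other 4 libraries. ERBB2 with GRB7 summed to 842 and 668 in SKBR3 and 5.34 to 11.4 elsewhere, and ESR1, PGR and GATA3 to 158 and 123 in T47D and 1.85 to 8.92 elsewhere. The epithelial markers EPCAM, KRT8 and KRT18 were near 0 in SUM1315, with sums of 0.910 and 1.18 RPKM, against 331 to 1089 in SKBR3 and T47D. Of 4 markers of other cells, the collagens COL1A1 and COL1A2 moved with SUM1315, and the list summed to 148 and 108 RPKM there against 0.849 to 2.73 in the other libraries. The leukocyte marker PTPRC and the endothelial marker PECAM1 were under 0.01 RPKM in every library. The part of these differences in the subunit levels was not tested.

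The largest difference was in NDUFB9, a membrane arm subunit (chr8:124539101-124580648, plus strand, GRCh38). It had 20.4 and 21.1 RPKM in hypoxia and normoxia of SUM1315, 192 and 209 in SKBR3, and 37.4 and 30.9 in T47D. SKBR3 lay far above the other lines at both oxygen levels. The log2 difference was -3.21 ± 0.19 for SUM1315 over SKBR3 (limma adjusted p = 2.6e-07), -0.69 ± 0.19 for SUM1315 over T47D (limma adjusted p = 0.0086) and 2.52 ± 0.19 for SKBR3 over T47D (limma adjusted p = 3.5e-06).

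NDUFA5, an accessory subunit of the matrix arm, had the same order of lines. It had 4.62 and 4.93 RPKM in SUM1315 (hypoxia and normoxia), 37.7 and 35.4 in SKBR3, and 10.8 and 9.25 in T47D. The difference was -2.70 ± 0.17 for SUM1315 over SKBR3 and 1.77 ± 0.17 for SKBR3 over T47D, both past the test. NDUFA3 and NDUFA1 were also highest in SKBR3, with 0.94 ± 0.27 for NDUFA1 in SKBR3 over T47D (limma adjusted p = 0.012).

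Other subunits were highest in T47D. NDUFB1, a small membrane arm protein, had 6.46 and 6.48 RPKM in SUM1315 (hypoxia and normoxia), 20.3 and 21.5 in SKBR3, and 64.5 and 47.8 in T47D. The 3 lines did not overlap, and the difference for SUM1315 over T47D was -2.92 ± 0.19 (limma adjusted p = 6.4e-07). NDUFA2, a matrix arm protein with a thioredoxin-like fold, stood at 46.8 and 50.1 RPKM in SUM1315, 192 and 156 in SKBR3, and 303 and 215 in T47D. SUM1315 lay under the other lines, with log2 differences of -1.81 over SKBR3 and -2.38 over T47D, both past the test.

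With NDUFB5 (-2.42) and NDUFS4 (-2.28), these made up the 4 lowest log2 differences for SUM1315 over T47D. NDUFS4, an accessory protein that stabilises the NADH module and whose loss causes Leigh syndrome, had 22.0 and 25.2 RPKM in SUM1315 (hypoxia and normoxia), 56.7 and 50.1 in SKBR3, and 118 and 119 in T47D. The order of the lines was the same at both oxygen levels for NDUFS4.

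NDUFA9, a matrix arm subunit near the ubiquinone site, ran the other way. It had 6.38 and 9.78 RPKM in SUM1315 (hypoxia and normoxia), 10.1 and 7.50 in SKBR3, and 1.45 and 2.60 in T47D. T47D lay under both other lines, and SUM1315 and SKBR3 overlapped. The difference was 1.59 ± 0.23 for SUM1315 over T47D (limma adjusted p = 0.00016) and 1.71 ± 0.23 for SKBR3 over T47D (limma adjusted p = 0.00016).

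NDUFS1 was the other subunit called higher in SUM1315 than in T47D, by 0.37 ± 0.15 (limma adjusted p = 0.044). The adjusted p was 0.094 to 0.30 with any 1 of the 4 SUM1315 and T47D libraries left out. The other core subunits differed in which lines set them apart. NDUFV2 did not pass in any of the 3 contrasts (estimates -0.08, -0.07 and 0.01). NDUFS8 was lower in SUM1315 than in T47D (-0.79), and NDUFV1 was lower in SUM1315 than in SKBR3 (-0.65). NDUFS7 was lower in SUM1315 than in both other lines, at -1.42 and -1.02.

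Of the 8 assembly factors, NDUFAF8 differed most between SUM1315 and SKBR3 in the positive direction. It was higher in SUM1315 by 1.12 ± 0.18 (limma adjusted p = 0.00029), and its 2 SUM1315 libraries, at 32.7 (hypoxia) and 27.4 (normoxia) RPKM, stood above both SKBR3 libraries, at 14.6 and 11.9. NDUFAF1 (0.63), NDUFAF3 (0.63) and NDUFAF6 (0.42) also passed as higher in SUM1315 than in SKBR3. With libraries centred on the median gene NDUFAF8 alone of these 4 passed. Without the hypoxia library of SUM1315 the adjusted p was 0.081 for NDUFAF1, 0.056 for NDUFAF3 and 0.091 for NDUFAF6. Without its normoxia library it was 0.18 for NDUFAF3 and 0.13 for NDUFAF6. NDUFAF6 also lost the call without the hypoxia library of SKBR3 (0.18), as did NDUFAF3 (0.055), and NDUFAF1 without the normoxia library of SKBR3 (0.060).

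NDUFAF5 was the assembly factor lower in SUM1315 than in both other lines, with log2 differences of -1.18 ± 0.15 over SKBR3 and -0.81 ± 0.15 over T47D, both past the test. NDUFAF4 was lower in SUM1315 than in SKBR3, at -0.81. NDUFAF7 was the 1 assembly factor called higher in SUM1315 than in T47D, at 0.53 ± 0.17 (limma adjusted p = 0.018). The adjusted p of NDUFAF7 was 0.061 without the normoxia library of SUM1315 and 0.24 without the hypoxia library of T47D.

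Between SKBR3 and T47D, 8 of 45 members were higher in SKBR3, against 26.6% of all tested genes, and 15 were lower, against 31.2%. The median over members was -0.11, beside -0.05 over all tested genes. Besides NDUFB9, NDUFA5 and NDUFA9, NDUFAF4 was among the most raised in SKBR3, at 1.11 ± 0.17 (limma adjusted p = 0.00032). NDUFB1 (-1.37), NDUFAF6 (-1.32), NDUFB4 (-1.32) and NDUFAF8 (-1.15) were the most reduced. NDUFAF6 had 0.909 and 1.31 RPKM in SKBR3 (hypoxia and normoxia), against 4.34 and 4.16 in T47D, and 1.65 and 1.97 in SUM1315. T47D was thus the highest line for NDUFAF6 and SKBR3 the highest for NDUFAF4.

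Of the 45 genes, 21 overlap another coding gene in GENCODE release 29, among them NDUFB9, NDUFB2, NDUFA1, NDUFA2, NDUFA3, NDUFA9, NDUFB8, NDUFS1, NDUFS3, NDUFAF3, NDUFAF6 and NDUFAF7. The sources used here do not state the strand setting, so reads of such a gene and its neighbour cannot be told apart where they share bases. NDUFAF4, NDUFAF5, NDUFAF8, NDUFV2, NDUFB1, NDUFA5 and NDUFS4 overlap none.

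**Figure D4:**
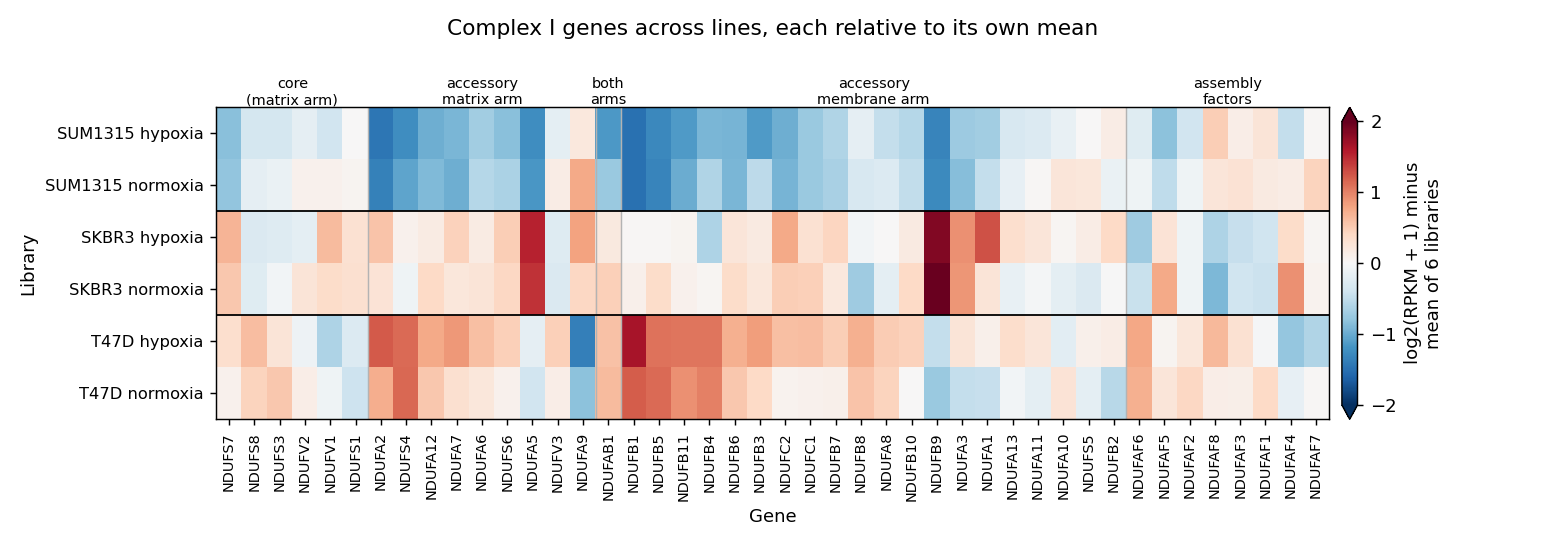
The same 44 complex I genes in each library as log2(RPKM + 1) minus each gene's own mean over the 6 libraries (colour scale, red above and blue below the mean), with genes in columns by class and libraries in rows. The 2 SUM1315 rows are blue for most subunits, SKBR3 is red in NDUFB9 and NDUFA5, T47D is blue in NDUFA9, and the assembly factors show no common pattern over lines.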

How the data were processed

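The deposited table holds values made by the authors and taken here as RPKM, 1 column per library. No header gives the unit, which was read from the values. Each value was multiplied by transcript length in kb, for genes with a single GENCODE release 29 transcript and a result under 1. Of these 3203 to 3527 genes, 49.9% to 52.9% came to a whole number of steps (tolerance 0.02 of a step). For a step fixed beforehand 4% would do so by chance, but the step was chosen for the largest share. The check shows a value per length and cannot tell RPKM from other such units. Reads were handled with HISAT2, Trimmomatic, SAMtools and Partek on GRCh38/hg38, per the submitters' processing notes, and the sources used here do not give the counting annotation. By that step, a count of 3 on 1 kb stands for 0.0898 to 0.138 RPKM, covering counting error only.

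The 10253 genes that reached 1 RPKM in no fewer than 3 of 6 libraries were compared with limma 3.58.1 (R 4.3.3) on the log2(RPKM + 1) scale (cell line and oxygen level as terms, mean-variance trend, two-sided, Benjamini-Hochberg over all tested genes, 0.05). Levels and medians over genes were not tested. Lines pair the libraries by their labels: deviations of a line's pair from the oxygen means correlated at 0.97 (SUM1315), 0.94 (SKBR3) and 0.94 (T47D) over genes. The fit was tested on simulated data. Alternatives were no block, other pseudocounts and filters, 2 rescalings, robust limma and leaving out each line or library.

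Members and lists were chosen with earlier results of these data known. Named genes were members that passed in hypoxia, the core subunits, the NDUFAF factors, the 3 highest and 3 lowest subunit estimates, the 4 highest and 4 lowest passing members of each line contrast, the extremes in level and spread, and the passing, highest and lowest genes of each other list. Of the core subunits, 1 is counted in the lists and its own values are not reported here. Others were chosen after their values were seen. RefSeq gave the promoters, and GENCODE release 29 the gene coordinates.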

Additional observations from a re-analysis of the deposited data

Results flagged for a closer look

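NDUFA4L2, the paralog of NDUFA4 that was left out of the complex I genes and lay below the expression filter, stood at 7.42 RPKM in SKBR3 hypoxia against 0.234 RPKM in SKBR3 normoxia. It was picked out because a row outside the comparisons was above the normoxia level of its own line. In SUM1315 it had 0.518 RPKM in hypoxia and 0.526 in normoxia, and in T47D 0.609 and 0.281. These are single libraries, and the difference was not tested.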

How the results depend on the processing

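No member passed as higher in hypoxia (422 of all genes did) and 1 passed as lower. With each line left out, 0 to 1 were higher and 0 to 1 lower. The fall of NDUFAF4 was no longer called, leaving 0 lower, with no replicate block for line (0 of all genes called either way, 68 at an unadjusted p under 0.05), with no expression filter (0 called of 27552, 2715 at an unadjusted p under 0.05) and with a pseudocount of 5 (171 higher and 72 lower over all genes). Over all genes 179 were higher and 53 lower without T47D, and 499 higher and 459 lower with the filter set to all 6 libraries. The lines are the pairing, so the fit without the block compares unpaired libraries.

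Members higher in SUM1315 than in SKBR3 were 4, with 2 under no expression filter, 1 with libraries centred on the median gene, and 1 to 4 with a library left out. Members higher in SUM1315 than in T47D were 3, with 1 under no term for oxygen level, 1 with centred libraries, and 1 to 3 with a library left out. Members higher in SKBR3 than in T47D were 8, with 5 under no expression filter. Counts of members lower between lines stayed within 1.5 times under every alternative.

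Estimates of 4 genes that had not passed turned sign: with a line left out, NDUFAF1 ran from -0.190 to 0.0591 (the upper without T47D), NDUFAF3 from -0.107 to 0.0616 (0.0164 without SKBR3, 0.0616 without SUM1315), NDUFS1 from -0.0386 (without T47D) to 0.0640, and NDUFS8 from -0.112 to 0.0628 (0.0034 without SKBR3, 0.0628 without SUM1315). Over named genes, 499 recomputed values kept direction and side of the threshold, 43 lost the call and 1 gained it. A line left with 1 library is assumed to vary like the others. The causes were not tested.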

Other observations

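The readthrough gene NDUFC2-KCTD14, which shares sequence with NDUFC2, had 5.06, 12.1 and 26.0 RPKM in hypoxia of SUM1315, SKBR3 and T47D, against 7.23, 25.7 and 26.5 RPKM in normoxia. Its estimate was -0.50 (limma adjusted p = 0.13), against 0.25 for NDUFC2 (limma adjusted p = 0.36), and reads of the shared exons cannot be assigned to either from these values.

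The pseudogene NDUFV2P1 had 5.18 RPKM in SKBR3 hypoxia against 0.857 in SKBR3 normoxia. In SUM1315 it had 5.76 RPKM in hypoxia and 5.24 in normoxia, and in T47D it was under 0.05 RPKM in both libraries. The 7 pseudogene rows together held 0.0022% to 0.173% of the RPKM of members and pseudogenes. That share is pooled over all members and does not describe a single gene. NDUFV2 itself had 65.0 and 77.7 RPKM in SUM1315 (hypoxia and normoxia), 64.2 and 87.9 in SKBR3, and 68.3 and 81.0 in T47D. Whether reads of NDUFV2 and NDUFV2P1 were exchanged was not tested.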
